A study of Homo sapiens with 40 samples.

Results

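TGM2 encodes transglutaminase 2, an enzyme that joins proteins to one another when calcium is high. Its row was found by matching Ensembl IDs to gene symbols (ENSG00000198959.12), and it was 1 of 62263 genes in the deposited table. RNA came from BEAS-2B, an immortalised human lung epithelial cell line. Frac-seq, which sequences total RNA (called input) beside RNA bound to polyribosomes (called polysome), was used to ask how cells with less IGF2BP3, an RNA-binding protein, respond to the cytokine IL-13.

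One line constitutively carried a short hairpin RNA against IGF2BP3 (knockdown) and the other a control hairpin (control). The sample titles write si where the growth protocol writes sh. Cells of both lines were grown in 10% serum, starved overnight in 2% serum, and harvested 24 h after IL-13 was added at 100 ng/ml or, for unstimulated cells, without it. Fraction, treatment and line made 8 groups of 5 libraries, 40 in all. Each hairpin was represented by 1 line, so an effect of the knockdown and a trait of that line cannot be told apart. The labels do not say that replicates were separate cultures, so p-values measure the spread between these libraries, which may in part be technical.

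Inside cells, transglutaminase 2 also binds GTP and can act as a G protein. Outside them it binds fibronectin and integrins and crosslinks the extracellular matrix. In airway epithelium, TGM2 is known as a gene induced by IL-4 and IL-13, cytokines of allergic inflammation that signal through STAT6, and it also responds to retinoic acid, TGF-beta and NF-kB in various cells. In GENCODE release 29, TGM2 lies on chromosome 20, on the minus strand, with 6 annotated transcripts. Of these, 3 are protein-coding and 3 are retained-intron transcripts, and the longest has 5070 bases.

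The libraries held between 1816848 and 40441061 estimated counts, with a median of 26189353 in input and 19124845 in polysome, and 3 polysome libraries held fewer than 5000000. IGF2BP3, the targeted gene, averaged 35.2 ± 11.3 CPM (read counts relative to library size, after TMM scaling; SD, n = 5) in unstimulated control input and 24.9 ± 3.02 (SD, n = 5) in unstimulated knockdown input. After IL-13, the input means were 35.4 ± 6.72 in the control line and 25.8 ± 6.29 in the knockdown line (SD, n = 5 each). In polysome the control and knockdown means were 11.2 ± 6.84 and 11.2 ± 8.60 CPM in unstimulated cells, and 10.6 ± 3.62 and 9.15 ± 4.79 after IL-13 (SD, n = 5 each). In each of the 4 settings the libraries of both lines overlapped, and edgeR's quasi-likelihood test did not call the gene (log2 difference between lines -0.50 ± 0.37 SE in unstimulated input, adjusted p = 1.00, and -0.10 ± 0.39 in unstimulated polysome, adjusted p = 0.985). Of the labelled cell type's markers, the 8 of bronchial epithelium had a summed TPM (abundance scaled for transcript length and depth) of 1162 to 1681 in unstimulated input, and 6 mesenchymal markers had a similar sum, 1182 to 1715. These sums do not say how many members contribute, and TP63 was not expressed highly enough to test. The basal-cell marker KRT5 was listed at 0 in all control polysome libraries and TP63 in all unstimulated knockdown polysome libraries. The 5 blood markers summed to 12.1 to 41.4 TPM in input and 6.55 to 55.2 in polysome, mostly from CD68 and CD14, while MS4A1 was listed at 0 throughout.

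TGM2 was low in unstimulated cells, except in 1 replicate, and higher after IL-13. In these bulk libraries, more cells with TGM2 RNA and more TGM2 RNA per cell cannot be told apart. In unstimulated control input, replicates 1 to 5 held 26.5, 1.17, 0.478, 3.61 and 1.79 CPM. Replicate 1 was far above the other 4 libraries, which held 1.76 ± 1.34 CPM on average (SD, n = 4). In control input after IL-13, the replicates held 23.5, 60.8, 34.6, 28.6 and 9.29 CPM. Unstimulated replicate 1 lay above 2 of these 5 libraries, so the groups overlapped, and without it they did not.

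In knockdown input, the unstimulated replicates held 8.35, 2.78, 1.49, 8.11 and 0.424 CPM. After IL-13 the knockdown replicates held 117.5, 22.6, 48.8, 239.1 and 60.7 CPM. Every IL-13 library lay above every unstimulated one, but the IL-13 libraries themselves spanned 10.6-fold, with replicate 4 the highest of all 40.

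By group mean, TGM2 was lower in polysome than in input in each setting, a difference that the main fit given below did not call. In the control line, the unstimulated polysome replicates held 16.7, 1.64, 0, 1.31 and 1.23 CPM, and the IL-13 replicates 0.867, 13.3, 3.54, 21.9 and 11.7 CPM. Replicate 1 was again the high library of the unstimulated group, while replicate 1 of the IL-13 group was the low one, so the groups overlapped with or without the former. In the knockdown line, the unstimulated polysome replicates held 0, 0.337, 1.83, 0.282 and 0 CPM, and the IL-13 replicates 7.43, 19.3, 28.6, 87.3 and 26.9 CPM. These groups were apart, and replicate 4 was the highest in polysome as it was in input. The 3 libraries with no count allow up to 0.157 CPM in unstimulated control replicate 3, and 0.748 and 1.47 CPM in the shallower unstimulated knockdown replicates 1 and 5, from a floor of 3 counts. Such floors cover counting error only, since the reads carry no molecular identifiers.

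**Figure D1:**
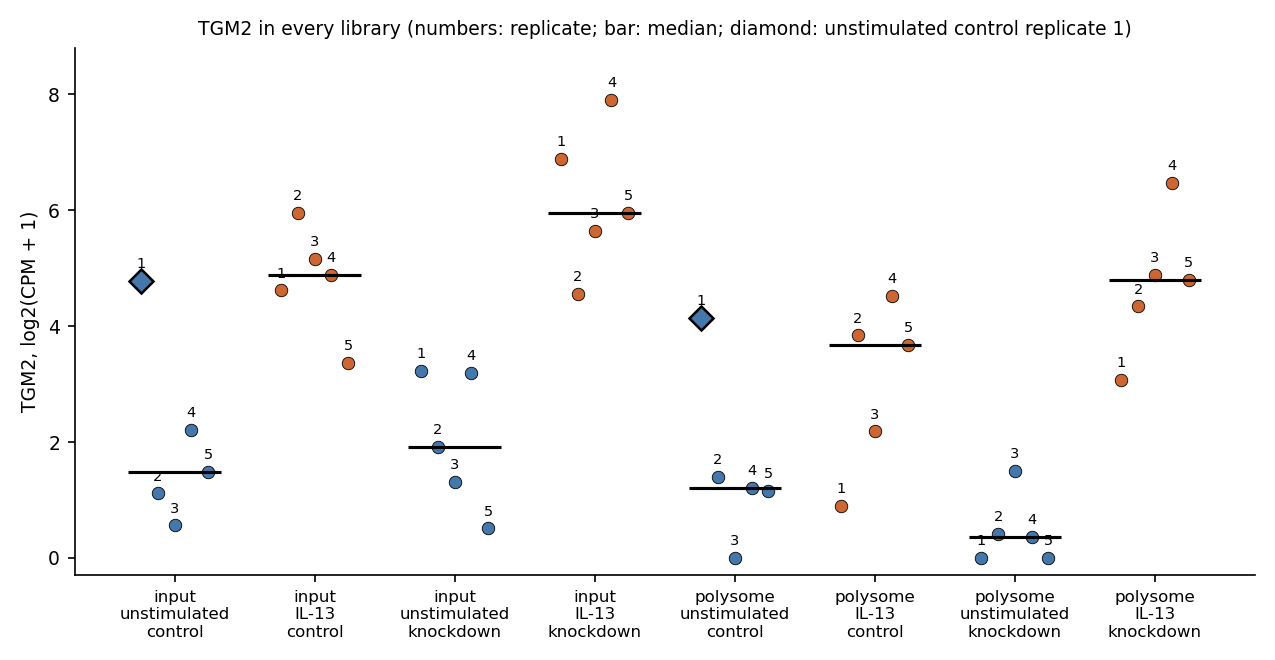
TGM2 in each of the 40 libraries as log2(CPM + 1), by group, with unstimulated libraries in blue and IL-13 libraries in orange, the replicate number above each point, and a bar at the group median. Unstimulated control replicate 1 (diamonds, 26.5 CPM in input and 16.7 in polysome) lies among the IL-13 libraries, while the other unstimulated libraries lie at or below 8.35 CPM. That range also holds IL-13 polysome libraries, control replicates 1 and 3 (0.867 and 3.54 CPM) and knockdown replicate 1 (7.43 CPM).

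By group mean, TGM2 went from 6.71 ± 11.1 to 31.3 ± 18.9 CPM in control input and from 4.23 ± 3.75 to 97.7 ± 86.3 CPM in knockdown input (SD, n = 5 each). In polysome it went from 4.17 ± 7.03 to 10.3 ± 8.36 CPM in the control line and from 0.489 ± 0.764 to 33.9 ± 31.0 CPM in the knockdown line (SD, n = 5 each). Ordered by median, the groups ran from unstimulated knockdown polysome (0.282 CPM) through unstimulated control polysome (1.31), unstimulated control input (1.79) and unstimulated knockdown input (2.78) to the 4 IL-13 groups. Of these, control polysome had a median of 11.7 CPM, knockdown polysome 26.9, control input 28.6 and knockdown input 60.7. No group differed from its neighbour in this order beyond their spread, with adjusted p from 0.361 to 1.00 over the 7 pairs (exact permutation tests, two-sided, on log2(CPM + 1)). The unstimulated groups held the 4 lowest places and the IL-13 groups the 4 highest, also by group means and by deposited TPM.

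Did IL-13 raise TGM2 in each line? In the knockdown line the change was large in both fractions. The log2 fold change was 4.52 ± 1.05 (SE) in input, a 22.9-fold difference with edgeR's adjusted p of 0.125 over 16735 genes, which did not pass 0.05. In polysome it was 5.67 ± 1.23 (SE), a 50.9-fold difference with a 95% interval of 3.17 to 8.17 on the log2 scale, and TGM2 was among the 0.0956% of genes called in that comparison (edgeR adjusted p = 0.0488). Tested alone, knockdown TGM2 differed by 4.16 in input and 4.26 in polysome on the log2(CPM + 1) scale, each with an exact permutation p of 0.00794, the smallest that 5 against 5 libraries can give (adjusted over 4 settings, 0.0159). The polysome fold rests on few counts in unstimulated cells, where each library held 0 to 32.

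The knockdown polysome call was close to the threshold. It was lost on leaving out any of the 10 libraries compared except IL-13 knockdown replicate 1, with log2 fold changes of 4.93 to 7.04 and edgeR adjusted p from 0.0531 to 0.274. It was also lost over the 37 libraries of at least 5000000 counts (5.52, edgeR adjusted p = 0.510), over the 20 polysome libraries alone (5.78, 0.114) and with an offset for transcript length (5.73, 0.0521). The knockdown input value, at 4.52, passed with DESeq2's Wald test (adjusted p = 0.00863) and when only the 10 libraries compared were fitted (4.49, edgeR adjusted p = 0.0378).

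In the control line the change was smaller and not called. The log2 fold change was 2.23 ± 0.95 (SE) in input (edgeR adjusted p = 1.00) and 1.37 ± 0.97 (SE) in polysome (edgeR adjusted p = 1.00). The exact permutation test gave a difference of 2.76 on the log2(CPM + 1) scale in input (p = 0.0238, adjusted 0.0317) and 1.44 in polysome (p = 0.151, adjusted 0.151), two-sided. The adjusted exact p in input rose to 0.0529 without IL-13 control replicate 2, 3 or 4, and to 0.0635 without unstimulated control replicate 2, 3, 4 or 5 (differences of 2.40 to 2.81). Unstimulated control replicate 1 stood out by its TGM2 value itself, so leaving it out selects on the values tested. The p-values without it, here and below, are therefore descriptions and no support. Without unstimulated control replicate 1 the input difference was 3.45 with an exact p of 0.00794 (adjusted 0.0106), the smallest that 4 against 5 libraries can give. The polysome difference was then 2.08 with an exact p of 0.0635. In the edgeR fit of the 38 libraries without that replicate, the control log2 fold changes were 4.15 ± 0.92 (SE) in input (adjusted p = 0.0786) and 3.37 ± 0.96 (SE) in polysome (adjusted p = 0.325). In the same fit the knockdown input value was 4.52 ± 0.84 (SE) and TGM2 was called there (edgeR adjusted p = 0.00815).

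Averaged over the lines, TGM2 rose with IL-13 in both fractions. The averaged log2 fold change was 3.37 ± 0.71 (SE) in input, 10.4-fold, and TGM2 was among the 0.149% of genes called (edgeR adjusted p = 0.0189). In polysome it was 3.52 ± 0.78 (SE), 11.5-fold, among the 0.209% called (edgeR adjusted p = 0.0356). Without unstimulated control replicate 1 these were 4.34 ± 0.63 (SE) and 4.52 ± 0.69 (SE). In input the call was lost on leaving out IL-13 knockdown replicate 4 (3.05, edgeR adjusted p = 0.0667), unstimulated control replicate 2, 4 or 5, or unstimulated knockdown replicate 2, 3 or 5 (3.24 to 3.32, edgeR adjusted p from 0.0502 to 0.0606). In polysome it was lost without IL-13 control replicate 4 or 5, IL-13 knockdown replicate 4, unstimulated control replicate 2, 3, 4 or 5, or unstimulated knockdown replicate 1, 2 or 4 (3.15 to 3.50, edgeR adjusted p from 0.0504 to 0.0970). It was also lost over the 37 deeper libraries (3.48, edgeR adjusted p = 0.120) and over the polysome libraries alone (3.56, 0.0832). The summed TPM of the epithelial markers also moved with IL-13, from 1162 to 1681 in unstimulated input to 1475 to 2680 in IL-13 input. In polysome the sums largely overlapped, at 715 to 1378 and 760 to 1497. The averaged log2 effects in input were 0.70 for KRT8, 0.59 for KRT18 and 0.64 for KRT19. They were -0.36 for KRT7, -0.16 for EPCAM, -0.09 for KRT5 and -0.01 for CDH1. None of these was called (smallest edgeR adjusted p = 0.0534). The part of the markers in the TGM2 result was not tested.

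The responses of the lines were not distinguishable by test. The gap between them in input rested mostly on 1 replicate, and the gap in polysome shrank from 4.30 to 2.29 without it. The IL-13 effect in the knockdown line minus that in the control line was 2.29 ± 1.31 (SE) in input and 4.30 ± 1.52 (SE) in polysome on the log2 scale (edgeR adjusted p = 1.00 for both, unadjusted 0.0892 and 0.00741). For this difference edgeR called 0 of 16735 genes in either fraction, with 153 genes in input and 563 in polysome at an unadjusted p under 0.05, and DESeq2's Wald test called 6 and 25, TGM2 not among them. Without unstimulated control replicate 1 the difference was 0.37 ± 1.09 (SE) in input, with a 95% interval of -1.85 to 2.59, and 2.29 ± 1.31 (SE) in polysome.

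**Figure D2:**
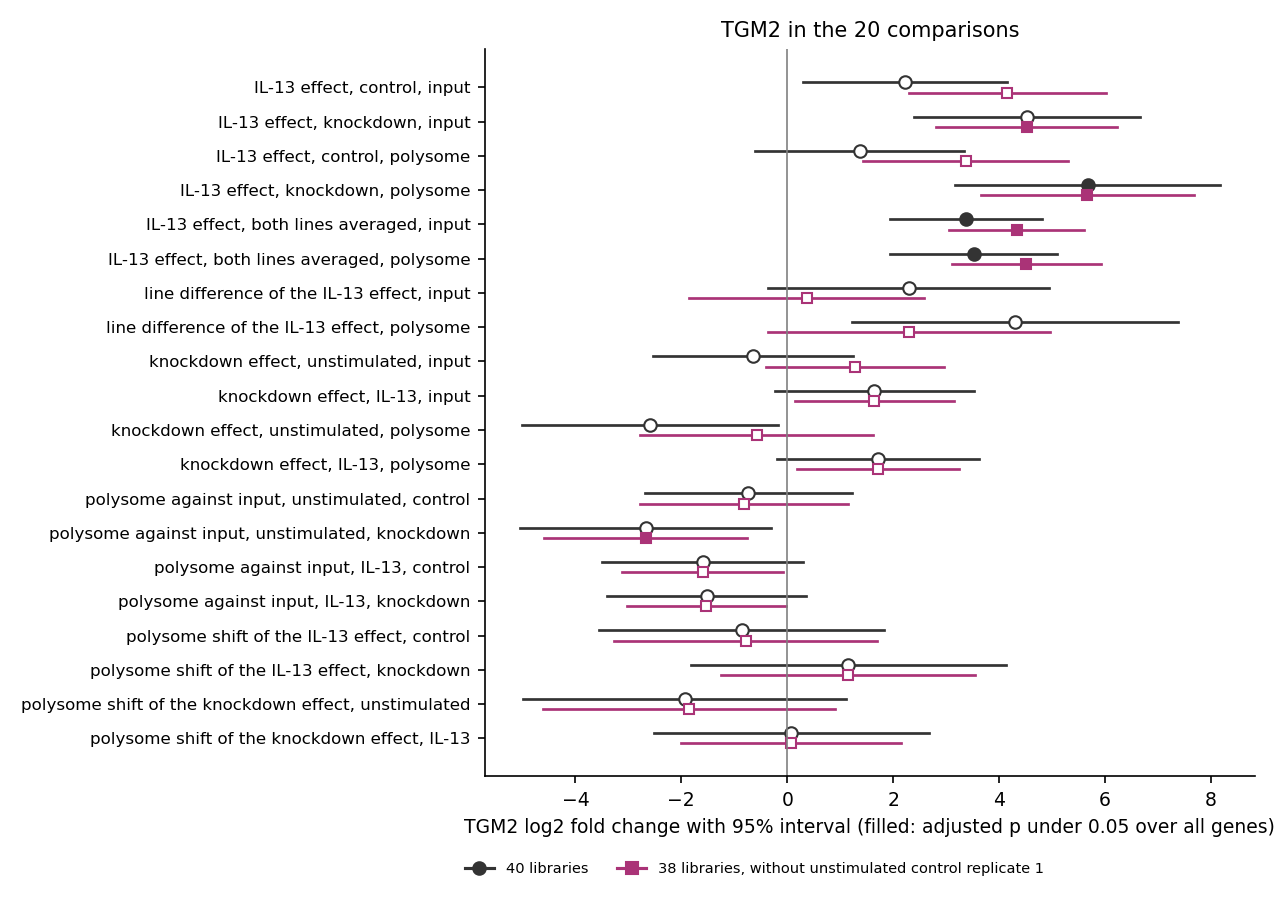
TGM2 log2 fold changes from edgeR with 95% intervals in the 20 comparisons, over all 40 libraries (grey circles) and over 38 without unstimulated control replicate 1 (purple squares), with filled symbols where the adjusted p is under 0.05. Leaving out that replicate moved the line difference in input from 2.29 to 0.37 and the unstimulated knockdown effect in input from -0.65 to 1.28.

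Between the lines within a treatment, TGM2 was not called. In input the knockdown line differed by -0.65 ± 0.93 (SE, log2) in unstimulated cells and by 1.64 ± 0.93 (SE) after IL-13 (edgeR adjusted p = 1.00 for both, with 0.012% and 0% of genes called). In polysome the differences were -2.59 ± 1.19 (SE) in unstimulated cells (edgeR adjusted p = 0.610, 0.0299% of genes called) and 1.72 ± 0.94 (SE) after IL-13 (edgeR adjusted p = 0.568, 0.0896% called). Without unstimulated control replicate 1 the unstimulated difference turned to 1.28 ± 0.83 (SE) in input and shrank to -0.58 ± 1.08 (SE) in polysome. The 95% intervals in IL-13-treated cells, -0.24 to 3.52 in input and -0.19 to 3.62 in polysome, leave room for no difference and for one of several fold.

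Polysome RNA was then compared with input. The labels do not say whether input and polysome libraries of the same number came from 1 culture. The pairs below are therefore matches by label only. Libraries with the same line, treatment and number made 20 pairs. Unstimulated knockdown replicate 5 was set aside, since its 0.424 CPM in input lay under the 1.47 CPM that its polysome library could hold unseen. By the values counted, TGM2 was lower in polysome in 16 of the other 19. As counted, the difference ran from -3.81 to 0.31 with a median of -0.87 on the log2(CPM + 1) scale. The 3 exceptions were unstimulated control replicate 2, unstimulated knockdown replicate 3 and IL-13 control replicate 5. In these 3 the 95% counting intervals (Poisson) of both libraries overlapped. They overlapped as well in unstimulated control replicate 5 and IL-13 knockdown replicate 2, so the direction in all these pairs is within counting error. By edgeR, polysome against input was -0.74 ± 0.96 (SE, log2) in unstimulated control cells (adjusted p = 0.582), -2.67 ± 1.17 in unstimulated knockdown cells (0.0687), -1.60 ± 0.94 in IL-13 control cells (0.181) and -1.52 ± 0.93 in IL-13 knockdown cells (0.202). None was called, although 40.2%, 38.5%, 39.3% and 39.3% of all genes were in these comparisons, in the same order, and the median of all genes was -0.23 to -0.19. With line, treatment and number as a block, which the labels do not establish, unstimulated knockdown and IL-13 control cells passed, as given below. Without unstimulated control replicate 1 in the spread, the value of -2.67 in unstimulated knockdown cells passed the threshold (edgeR adjusted p = 0.0226). It did so as well without unstimulated knockdown input replicate 5 (-2.96, edgeR adjusted p = 0.0481) or polysome replicate 3 (-4.05, 0.0340). In unstimulated control cells the value was 1.19 without the input library of replicate 1 and -2.74 without its polysome library (edgeR adjusted p = 0.350 and 0.0394).

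The IL-13 effect did not shift detectably between fractions. The polysome effect minus the input effect was -0.86 ± 1.33 (SE, log2) in the control line and 1.15 ± 1.47 in the knockdown line (edgeR adjusted p = 1.00 for both). For these 2 shifts edgeR called 0 of 16735 genes, with 326 and 219 at an unadjusted p under 0.05, and DESeq2 called 20 and 5. The control value was 1.14 without the polysome library of unstimulated replicate 1. The knockdown effect shifted by -1.94 ± 1.51 (SE) in unstimulated and 0.08 ± 1.28 (SE) in IL-13-treated cells (edgeR adjusted p = 1.00 for both, 0% and 0.00598% of genes called). Leaving out single libraries moved the latter between -0.67 and 0.72, and leaving out unstimulated control polysome replicate 1 moved the former to 0.07. Over the 10 unstimulated pairs, matched by label only, input and polysome levels gave Pearson's r = 0.590 (permutation p = 0.0752, adjusted over 2 relations 0.150) and Spearman's rho = 0.276 (permutation p = 0.443). With the 2 pairs farthest from the input median left out, r was 0.146, so this relation rested on them. Over the 10 IL-13 pairs r was 0.473 (permutation p = 0.164, adjusted 0.164), rho 0.382 (permutation p = 0.280), and r without the 2 farthest 0.214.

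**Figure D3:**
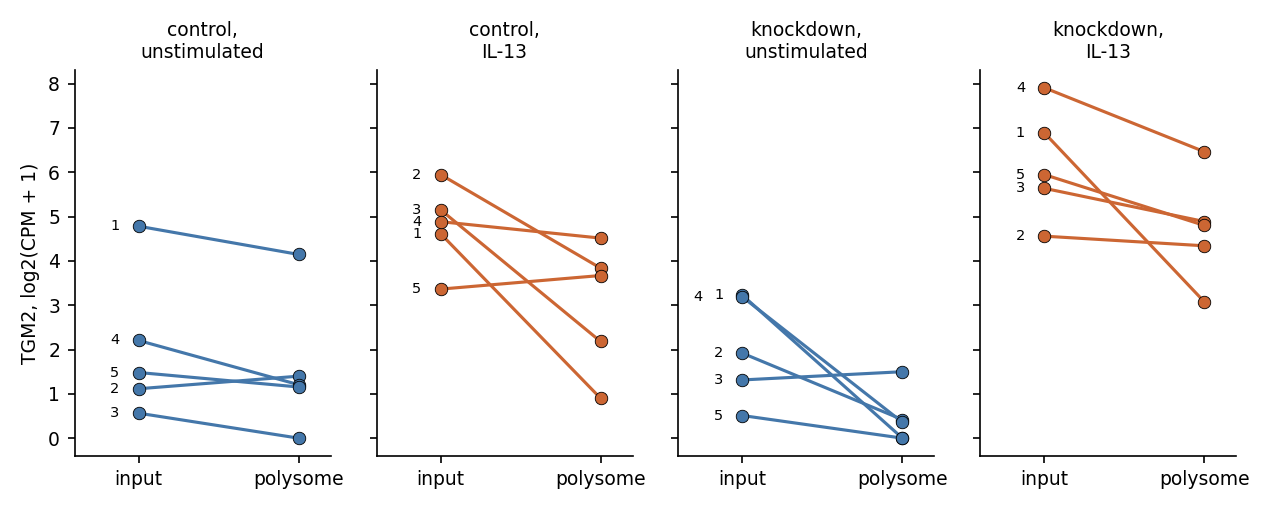
TGM2 as log2(CPM + 1) in input and polysome libraries that share a line, treatment and replicate number (numbers at left), with lines joining each pair. In 16 of 19 pairs the polysome library lies lower as counted, by up to 3.81 on this scale in IL-13 knockdown replicate 1 (a difference of -3.81). Some of the 19 differ by no more than counting error. The remaining pair, unstimulated knockdown replicate 5, is drawn at 0 in polysome, where up to 1.47 CPM could go unseen.

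The replicates of TGM2 spread more widely than those of most genes tested. Its biological coefficient of variation, the part of the replicate variation beyond counting, was 1.03, against 0.359 for the median gene and 0.327 for the trend at its abundance, and 8.42% of genes had a larger one. Its within-group SD of log2(CPM + 1) was 1.27, against a median of 0.389, and 0.365% of genes had a larger one. Of 4190 genes with a mean CPM within 2-fold of its own (23.6 CPM), 18 had a larger within-group SD. Counting error is a small part of the spread in IL-13 input, where the libraries held between 212 and 8530 TGM2 counts each. It weighs more in unstimulated libraries, which held as few as 7 counts in input and 0 in polysome. In the fit of 38 libraries without unstimulated control replicate 1 the biological coefficient of variation was 0.850.

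Among the 25 genes called for the averaged IL-13 effect in input, TGM2 ranked 10 by log2 fold change and 24 by p, and its within-group SD was the largest, against a median of 0.400 for the 25. Among the 35 called in polysome it ranked 12 by log2 fold change, 29 by p and 2 by SD. CISH, a feedback inhibitor of cytokine signalling, held between 27.6 and 45.5 CPM in control input after IL-13 and between 24.0 and 33.5 in knockdown input. TGM2 spanned 9.29 to 60.8 and 22.6 to 239.1 CPM in the same libraries.

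**Figure D4:**
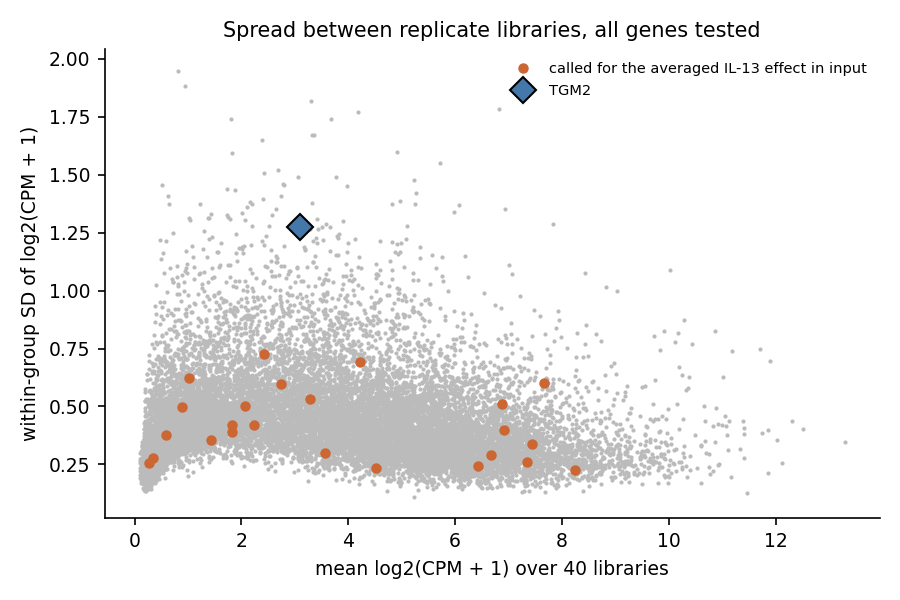
Within-group SD of log2(CPM + 1) against the mean of log2(CPM + 1) over 40 libraries for each gene tested (grey), for the genes called for the averaged IL-13 effect in input (orange) and for TGM2 (blue diamond). TGM2, at an SD of 1.27, lies above the other 24 called genes and above nearly all genes of similar level.

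Which transglutaminases did these cells express? TPM, the deposited per-length scale, was used to compare genes. TGM1, the membrane-anchored enzyme of epidermal cornification, was counted in 40 of 40 libraries at 0.776 to 11.6 TPM with a median of 3.93. TGM2 was counted in 37 of 40 at up to 58.8 TPM with a median of 1.96, and was above TGM1 in 14 of 40 libraries. TGM4, known from prostate, had a median of 0.121 TPM. TGM7 and F13A1, the catalytic chain of clotting factor XIII, were each counted in 1 library, and TGM3, TGM5, TGM6, F13B and EPB42 were listed at 0 in all 40. Of these 10 family members 3 were tested, and TGM2 was the only one called in any IL-13 or knockdown comparison. The averaged IL-13 effect on TGM1 was 0.18 ± 0.29 (SE, log2) in input and -0.21 ± 0.29 in polysome (edgeR adjusted p = 1.00 for both). For TGM4 it was -1.69 ± 0.61 in input (edgeR adjusted p = 1.00, unadjusted 0.00868) and -0.49 ± 0.64 in polysome (adjusted p = 1.00), with -2.49 ± 0.89 in knockdown input (unadjusted p = 0.00830, adjusted 1.00).

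Genes whose proteins transglutaminase 2 binds or crosslinks formed a list of 20, among them FN1 (fibronectin), ITGB1 and ITGA5 (chains of its receptor), SDC4, LTBP1 and TGFB1, and all 20 were tested. By edgeR 0 of 20 were called in any IL-13 or knockdown comparison, and DESeq2 also called 0. At an unadjusted p under 0.05 there were 0 to 3 of 20 in each. With 0% to 0.209% of all genes called in these comparisons, and 1.03% to 9.92% at an unadjusted p under 0.05, such counts are near those of all genes and are no result about the list. Their median averaged IL-13 effect was -0.08 in input and -0.12 in polysome on the log2 scale, against 0.00 and -0.02 for all genes.

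Of 20 known IL-13 and STAT6 target genes of airway epithelium, 8 were expressed highly enough to test. A gene expressed in a single group could pass that filter, so members near 0 in unstimulated cells could enter through their IL-13 libraries alone. The list was also chosen with earlier results of these data known. The calls below therefore describe its members and are no test of the list against all genes. In each line and fraction, 4 of the 8 were called higher: CCL26 (the eosinophil attractant eotaxin-3), CISH, SOCS1 (an inhibitor of JAK kinases) and HSD3B1 (a steroid dehydrogenase). Of all genes tested, 0.0777% were called higher in control input, 0.0837% in knockdown input, 0.0956% in control polysome and 0.0896% in knockdown polysome, and 0.125% and 0.0956% were called in either direction in the latter pair. Averaged over the lines, 6 of 8 were called in input, with ALOX15 (a lipoxygenase, 4.16 ± 0.83 SE, edgeR adjusted p = 0.0130) and SERPINB4 (4.28 ± 0.86, 0.0135) added, and 5 of 8 in polysome, where 0.179% of all genes were called higher, with SERPINB3 (5.68 ± 1.13, 0.0139) added. The averaged effect in input was 6.60 ± 0.48 (SE, log2) for CCL26, 7.27 ± 0.52 for HSD3B1, 3.95 ± 0.18 for CISH and 2.80 ± 0.28 for SOCS1, against 3.37 ± 0.71 for TGM2. CCL26 and HSD3B1 were near 0 in unstimulated input (at most 0.297 and 0.0925 CPM), so their fitted values depend on the prior count and are no bounds. The standard error of TGM2 was larger than those of these 4 genes.

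Genes that answer the other signals known to act on TGM2 were read in the same fits. Of retinoic acid targets 8 of 10 were tested, and 0 were called by edgeR for the averaged IL-13 effect in either fraction, with 1 at an unadjusted p under 0.05 in each and 0 by DESeq2. All 10 TGF-beta targets were tested, with 0 called by edgeR, 2 in input and 3 in polysome at an unadjusted p under 0.05, and 0 by DESeq2. Of the 10 NF-kB targets 0 were called by edgeR and by DESeq2, with 5 in input and 7 in polysome at an unadjusted p under 0.05 and a median averaged effect of -1.14 in input. Without unstimulated control replicate 1 that median was -0.01. Of all genes, 0.149% in input and 0.209% in polysome were called for the averaged effect, and 1.96% and 5.28% were at an unadjusted p under 0.05.

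Unstimulated control replicate 1 stood apart in these same lists. All 10 NF-kB targets were at their highest of the 20 libraries there, in input and in polysome. The share of all genes at their highest in that replicate is not given here. This count and those of the TGF-beta targets below are therefore descriptions without a background. Their summed level was 669 TPM in input, against 45.0 to 65.3 in the other 19, and 555 TPM in polysome, against 35.7 to 79.9. The neutrophil attractant CXCL8 held 132 CPM there in input and at most 0.582 in the others, and TNFAIP3, an inhibitor of NF-kB, 69.3 against at most 2.14. The TGF-beta targets were mixed. By CPM, 5 of 10 were highest in that replicate in input and 3 of 10 in polysome, and 1, ID3, was the lowest of the 20 in polysome (62.7 CPM, against 74.1 to 251). The largest value was that of the matricellular gene CCN2, 1610 CPM in input against at most 127 in the others.

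The IL-13 targets were not raised to the level of treated cells in that replicate. They summed to 7.15 TPM in input, against 68.1 TPM for the median of the other 19 libraries, treated and unstimulated together. This was above the 3.16 to 4.10 TPM of the other libraries of its own group, and ranked 11 from the top of the 20 input libraries. In polysome they summed to 2.95 TPM, within the 2.00 to 4.32 TPM of the others of its group. TGM2 there, at 26.5 CPM in input, lay between the 23.5 and 28.6 CPM of IL-13 control replicates 1 and 4. The transglutaminases other than TGM2 summed to 1.03 TPM there, the lowest of the 20 input libraries, against 1.83 to 4.99 in the others. Whether the high NF-kB target levels bear on TGM2 in this replicate was not tested.

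IL-13 knockdown replicate 4, with the highest TGM2, differed from it in this respect. Its IL-13 targets summed to 108 TPM in input, the highest of the 20, against at most 87.4 in the others, and to 87.2 TPM in polysome, against at most 75.3. Its NF-kB targets summed to 60.3 TPM in input, within the 50.8 to 62.8 of its own group.

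**Figure D5:**
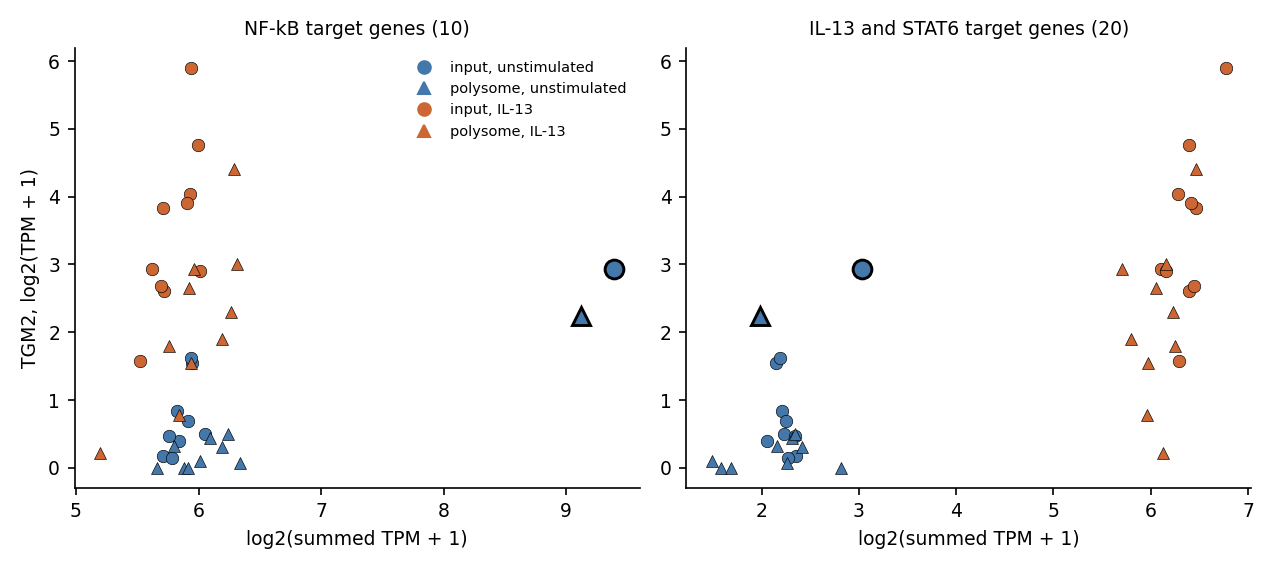
TGM2 as log2(TPM + 1) against the summed TPM of 10 NF-kB targets (left) and of 20 IL-13 and STAT6 targets (right), also as log2(TPM + 1), in the 40 libraries, with input as circles and polysome as triangles, unstimulated in blue and IL-13 in orange. Unstimulated control replicate 1 (thick outlines, 669 and 555 TPM) is alone at high NF-kB targets, and on the right lies with the unstimulated libraries.

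The genes most like TGM2 over the libraries were ranked by Pearson's r of log2(CPM + 1) among 13101 genes with a mean of at least 1 CPM. Over 40 libraries these were RFLNA (r = 0.804), SOCS1 (0.788), PPP1R14A (0.769), CCL26 (0.738) and JCAD (0.729). Over the 38 without unstimulated control replicate 1 they were PPP1R14A (0.832), RFLNA (0.829), SOCS1 (0.816), CCL26 (0.809) and HSD3B1 (0.765). RFLNA, an actin-related refilin, went from 0 to 3.90 CPM in unstimulated input to 9.71 to 36.6 CPM in IL-13 input. PPP1R14A, an inhibitor of myosin phosphatase, went from 0.628 to 4.28 CPM to 4.11 to 17.5 CPM. The points share treatment, fraction and depth, so these correlations are descriptions.

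The opposite-strand neighbour and the transcript mix were checked against the TGM2 values. TGM2 overlaps RPRD1B by 394 bases in GENCODE 29, and the libraries were stranded per the labels. RPRD1B held 43.4 to 65.3 CPM over all input libraries, a 1.51-fold span in which TGM2 spanned 564-fold. In polysome RPRD1B varied more, from 56.7 to 118 CPM, where TGM2 ran from 0 to 87.3 CPM. The effective length of TGM2 implied by counts and TPM, relative to the median gene of the library, was 2.40 to 2.46 in the 30 libraries with at least 20 TGM2 counts. Its median was 2.44 over 11 unstimulated and 2.43 over 19 IL-13 libraries, and the ranges overlapped.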

How the data were processed

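The deposited table of the authors gave, per gene and library, estimated counts with decimals and TPM, per the file headers. The submitters' processing notes name Trimmomatic, Salmon, MultiQC and DESeq2, with no version or role. The genome build and annotation are not given in the sources used here. The libraries were poly(A)-selected and stranded, per the labels' protocols. In the deposited table, the TPM of a library summed to 82.3% to 85.9% of a full set, so it holds part of the genes over which TPM was scaled.

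The design had assumed counts. The authors' estimated counts were therefore rounded. Filtering with filterByExpr over the 8 groups left 16735 genes, which were scaled with TMM and fitted with edgeR 4.0.16 in R 4.3.3 (quasi-likelihood, 1 mean per group, 40 libraries, 32 residual degrees of freedom). Two-sided p-values were adjusted over all genes tested (Benjamini-Hochberg), with calls under 0.05. Exact permutation tests in SciPy 1.17.1 used log2(CPM + 1). The edgeR procedure was tested on counts simulated with the trended spread. At the abundance of TGM2 that is a biological coefficient of variation of 0.327, against its own 1.03. The simulation therefore does not cover a gene as variable as TGM2.

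TGM2, IGF2BP3, called members of the lists (up to 4 per list by smallest p), all transglutaminases and the 5 genes most correlated with TGM2 were to be named. CXCL8, TNFAIP3, CCN2, ID3, KRT5, TP63, CD68, CD14, MS4A1, RPRD1B and the list members named by function were added after their values were seen. CDH5, an endothelial marker, was also called, in IL-13 polysome between lines (log2 difference 3.64, edgeR adjusted p = 0.0344), while endothelial markers summed to at most 4.48 TPM. TGM2, the lists and the alternatives were chosen with earlier results of these data known. Alternatives were DESeq2 1.42.0, DESeq2 size factors, no filter, fewer libraries, replicate blocks, a length offset, a pseudocount of 0.1, deposited TPM, and leaving out each library.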

Additional observations from a re-analysis of the deposited data

Results flagged for a closer look

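In groups of 5 libraries, a highest or lowest value whose gap to its nearest neighbour took up more than 0.71 of the group's range was singled out. TGM2 and IGF2BP3 were examined in 16 groups, and 6 values were singled out. Chance would single out about 0.8 if values were normally spread. The CPM values of TGM2 are skewed towards high values, and unstimulated control replicate 1 was chosen for description beforehand. The 6 flags are therefore a description and no test against 0.8. Unstimulated control replicate 1 held 26.5 CPM of TGM2 in input, against 0.478 to 3.61 in the other 4 libraries, and 16.7 CPM in polysome, against 0 to 1.64. Unstimulated knockdown replicate 3 held 1.83 CPM of TGM2 in polysome, against at most 0.337 in its group, and the 2 libraries at 0 there were also the shallow ones. IL-13 knockdown replicate 4 held 87.3 CPM of TGM2 in polysome, against 7.43 to 28.6. IGF2BP3 was low in IL-13 control polysome replicate 2, at 4.23 CPM against 11.2 to 12.8, and high in unstimulated knockdown polysome replicate 5, at 26.4 CPM against 5.35 to 9.09.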

How the results depend on the processing

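The averaged IL-13 effects on TGM2 and those in each line stayed positive in every alternative run. The call in knockdown input was gained with 38 libraries (4.52), only the libraries compared (4.49) and DESeq2 (4.52). The call in knockdown polysome was lost with 37 libraries (5.52), the fraction alone (5.78) and the length offset (5.73). The averaged polysome call was lost with 37 libraries (3.48) and with the fraction or only the libraries compared (3.56). Polysome against input in unstimulated knockdown cells passed with 38 libraries (-2.67), only the libraries compared (-2.64) and DESeq2 (-2.91). The unstimulated knockdown effect in input turned to 1.28 with 38 libraries. The exact control input test missed the threshold with deposited TPM (1.85, adjusted exact p = 0.0529). The causes were not tested.

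Same-numbered libraries did not deviate together throughout (correlations from -0.66 to 0.73), so the main fits did not take numbers as pairs. With the number as a replicate block, knockdown input passed (4.71). With line, treatment and number as a block, polysome against input passed in unstimulated knockdown (-2.86) and IL-13 control cells (-1.93). No other TGM2 call changed with a block. Blocks by number moved the genes called between lines in unstimulated cells from 2 to 0 in input and from 5 to 3 in polysome.

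Leaving out 1 library gave ranges of 3.05 to 4.34 (averaged input), 3.15 to 4.52 (averaged polysome), 4.93 to 7.04 (knockdown polysome), 2.40 to 3.45 (exact, control input), -4.05 to -2.29 and -2.74 to 1.19 (polysome against input, unstimulated knockdown and control), -1.04 to 1.28 (unstimulated knockdown effect, input), -2.78 to 1.14 (IL-13 shift, control), and -3.86 to 0.0683 and -0.67 to 0.72 (knockdown shift, unstimulated and IL-13).

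DESeq2 called 33, 22, 61 and 36 genes where edgeR called 13, 14, 21 and 16 for IL-13 in control input, knockdown input, control polysome and knockdown polysome, and 51 and 82 for the averages against 25 and 35. Between lines it called 28, 55, 89 and 144 against 2, 0, 5 and 15 (unstimulated input, IL-13 input, unstimulated polysome, IL-13 polysome), and over 38 libraries edgeR called 7, 8, 7 and 28. For the knockdown shifts DESeq2 called 10 each. DESeq2 size factors gave 5 and 8 for unstimulated cells, and no filter gave 1 and, for IL-13 polysome, 7. For the line difference in polysome and the control IL-13 shift, no filter gave 1 each.

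Depth limits the unstimulated polysome values, where TGM2 had 0 to 6 counts in 4 of 5 knockdown libraries.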
